A study of Homo sapiens with 10 samples.

Results

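Cytosolic ribosomal proteins are the protein building blocks of the ribosome, and their mRNAs are among the most abundant in a growing cell. The genes described here were taken by their symbols: RPL or RPS (large or small subunit) followed by a number, or by P and a number for the stalk proteins, with at most an ending A, X, L or L1. The pattern matched 82 of the 60558 genes in the tables, and 80 of them passed the filter on low counts. Both genes that did not pass, RPL3L and RPL10L, lay at or below 0.08 TPM (a level per unit length, scaled to the same sum in every library) in all 10 libraries, whereas every gene that passed was well above the filter in both groups.

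The cells were PC3, human prostate cancer cells first grown from a bone metastasis and labelled as wild type. In 5 libraries they had been kept for 3 days with adipocytes from human bone marrow (cocultivated), and in 5 libraries they had not (non-cocultivated). The labels give no donor, no ratio of the cell types and no way of separating them, and they do not say that the libraries come from separate cultures, so p-values measure the spread between these libraries. Each of 5 batch numbers in the labels was shared by 1 library of each group, and that number names a library within its group. The question is whether transcripts for the ribosome differed in the cancer cells after time with marrow adipocytes.

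A ribosome holds each core protein in a fixed proportion, so cells make these proteins in matched amounts, and surplus copies are degraded. Most of the mRNAs begin with a cytosine followed by a run of pyrimidines at the 5′ end, the terminal oligopyrimidine (TOP) tract. Through it, LARP1 and the growth-sensing kinase complex mTORC1 can raise or lower translation of these mRNAs without a change in their amount. Their mRNA level and protein output can thus part. A few core proteins have a second gene, a paralog, and for some of these, not all, the product can take the same place in the ribosome.

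The start windows below show which of the genes discussed here carry the tract, since that feature separates some paralogs from their main genes. Each line gives 40 bases before and 12 bases from the RefSeq transcription start (build GRCh38.p14), 5′ to 3′ on the gene's strand, with the tract in capitals where the transcript begins with C followed by at least 4 pyrimidines. RPS27L, RPS27, RPL22L1 and RPL22 are 2 paralogs with their main genes, RPL7L1 is another paralog, and RPS29, RPS3A and RPL10 are the other genes called higher.
RPS27L (chr15:63157466-63157517, minus strand): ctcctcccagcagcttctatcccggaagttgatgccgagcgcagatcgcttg
RPS27 (chr1:153990722-153990773, plus strand): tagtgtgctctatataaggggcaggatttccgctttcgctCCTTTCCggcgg
RPL22L1 (chr3:170870184-170870235, minus strand): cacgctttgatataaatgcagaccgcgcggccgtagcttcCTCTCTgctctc
RPL22 (chr1:6199584-6199635, minus strand): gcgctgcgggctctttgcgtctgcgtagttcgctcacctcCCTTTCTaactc
RPL7L1 (chr6:42879576-42879627, plus strand): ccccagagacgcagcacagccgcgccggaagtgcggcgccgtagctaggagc
RPS29 (chr14:49598699-49598750, minus strand): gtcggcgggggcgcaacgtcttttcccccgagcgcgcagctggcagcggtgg
RPS3A (chr4:151099588-151099639, plus strand): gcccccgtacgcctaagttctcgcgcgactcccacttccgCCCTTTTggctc
RPL10 (chrX:154398337-154398388, plus strand, 1 of 3 starts in the table): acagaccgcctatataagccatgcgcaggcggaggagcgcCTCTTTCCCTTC

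RPS27, RPL22, RPL22L1, RPS3A and RPL10 begin with a TOP tract at these starts, while the windows of RPS27L, RPL7L1 and RPS29 show none. Of the 65 members in the RefSeq table, 46 (70.8%) began with such a tract on the gene's strand, compared with 5.14% of all 27305 genes in the table. The medians of the fold changes described below were alike on both sides of this split. The median log2 fold change of counts was 0.08 for the 46 tested members with a tract and 0.08 for the 18 without. Members called higher were 2 of the 46 and 2 of the 18. A match is a description of the annotated start, not of the start used in these cells.

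Ribosomal protein transcripts made up almost the same share of the RNA in both groups. They held 18.1%, 19.3%, 19.2%, 19.3% and 19.3% of the summed TPM in cocultivated libraries 1 to 5, against 19.1%, 19.0%, 19.1%, 19.1% and 19.7% in the non-cocultivated libraries. The groups overlapped, with cocultivated library 1 lowest and non-cocultivated library 5 highest. The means were 19.0% ± 0.537 in cocultivated and 19.2% ± 0.298 in non-cocultivated libraries (SD, n = 5 each). As a share of the expected counts, which weigh long transcripts more, they took 6.41% ± 0.347 in cocultivated and 6.36% ± 0.162 in non-cocultivated libraries. The balance between the subunits also overlapped, with the summed TPM of large-subunit genes at 1.276 to 1.299 times that of small-subunit genes in cocultivated libraries and 1.287 to 1.297 times in non-cocultivated libraries.

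**Figure D1:**
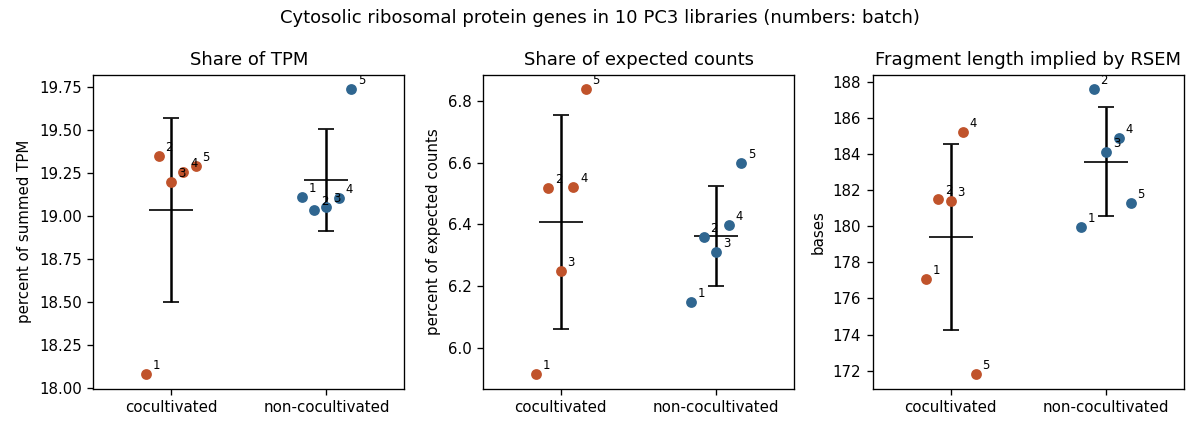
Share of the ribosomal protein genes in the summed TPM (left) and in the expected counts (middle), both in percent, and the mean fragment length in bases implied by RSEM's effective lengths (right), in 5 cocultivated and 5 non-cocultivated libraries (points, numbered by batch; lines are mean ± SD; the vertical axes do not start at 0). Cocultivated library 1 is lowest in both shares, at 18.1% and 5.91%, and cocultivated library 5 has the shortest fragments, at 171.8 bases.

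Gene by gene, the fold changes of the members between the groups were small. The counts called in this paragraph come from fits without a term for the batch. With that term 20 members (25%) were called higher, against 22.2% of all genes, and 2 lower (2.5%, against 22.2%). By edgeR's quasi-likelihood test with Benjamini-Hochberg adjustment over all 15690 genes tested, 4 of the 80 members were higher in cocultivated libraries (RPS27L, RPS29, RPS3A and RPL10) and 0 were lower, at an adjusted p under 0.05. Over all genes tested, 17.9% were called higher and 15.8% lower. Among other genes at 100 CPM (counts scaled to the library size) or more, a level that most members exceed, 24.5% were called higher and 17.3% lower. These genes were not matched to the members in depth. The fitted log2 fold change (cocultivated over non-cocultivated) lay within ±0.3 for 80 of 80 members, compared with 73.4% of all genes tested and 83.8% of the other abundant genes. The 95% interval lay within ±0.3 for 73 of 80 members. Without adjustment, 11 members had p under 0.05, against 42.9% of all genes tested. DESeq2 called 7 higher and 0 lower, against 18% of all genes higher and 16.6% lower.

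**Figure D2:**
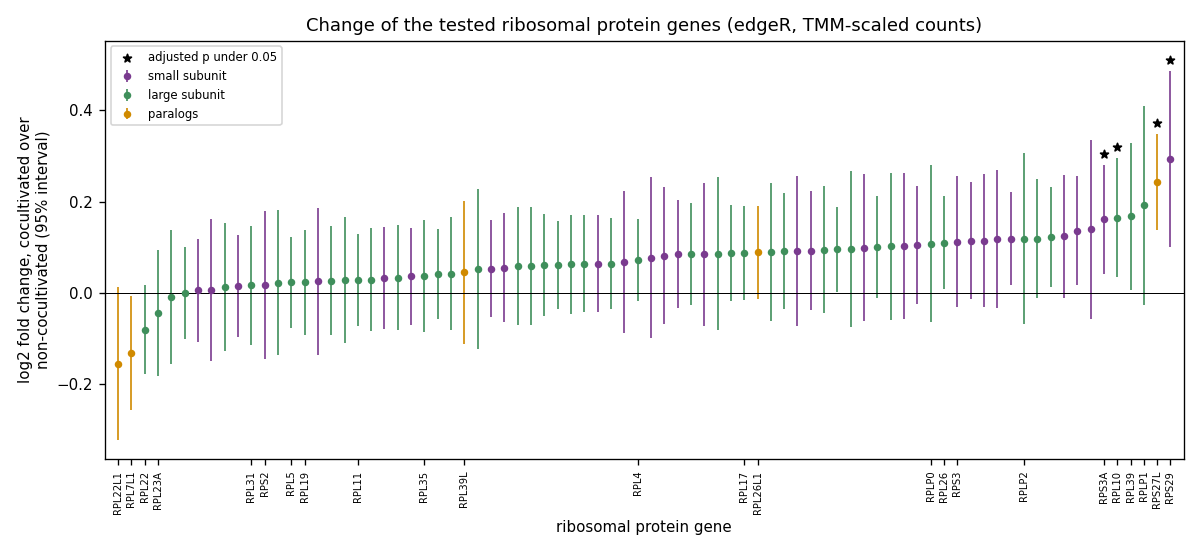
Log2 fold change of the 80 tested ribosomal protein genes (points) with 95% intervals (lines), cocultivated over non-cocultivated, from edgeR on TMM-scaled counts, ordered by size and coloured by subunit or as paralogs, with names for the called genes, the paralogs and the genes of the stalk, 5S, tunnel and mRNA entry groups. All points lie between -0.15 (RPL22L1) and 0.29 (RPS29), and stars mark the 4 genes with an adjusted p under 0.05.

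The members moved together within a library rather than one by one. In TMM-scaled CPM, 6, 77, 56, 77 and 77 of the 80 members were above their non-cocultivated mean in cocultivated libraries 1 to 5, against 3, 30, 28, 71 and 77 in non-cocultivated libraries 1 to 5. In this unit, libraries of batch 1 were thus low in both groups, and libraries of batch 5 high in both. TPM did not show the same pattern. There the median member, relative to its non-cocultivated mean, was at -0.09 log2 in cocultivated and -0.004 in non-cocultivated library 1. In library 5 it was at -0.02 in cocultivated and 0.03 in non-cocultivated. Within batches 1 to 5 the median log2 ratio of the members, cocultivated over non-cocultivated, was -0.05, 0.12, 0.03, 0.08 and 0.15. The SD between libraries of a group, as a median over the members in log2 CPM, was 0.12 in cocultivated and 0.05 in non-cocultivated libraries, compared with 0.13 and 0.10 over all genes tested and 0.09 and 0.07 over the other genes at 100 CPM or more.

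The number of members called depended on the batch term and on which libraries were fitted. In a fit with a term for the batch, 20 members were called higher and 2 lower (RPL22L1 and RPL7L1), against 22.2% of all genes higher and 22.2% lower. Without cocultivated library 1, 30 members were higher and 0 lower, against 19.2% and 16.9% of all genes. Leaving out other single libraries gave 1 to 3 higher.

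The sign of the common shift also depended on the unit. The median log2 fold change over the members was 0.07 in TMM-scaled counts, positive for 75 of 80, and that of all genes tested was -0.01. In TPM the median over the members was -0.01, positive for 32 of 80, and that of all genes -0.08. By limma on log2(TPM + 0.1), 3 members were higher (RPS27L, RPS29 and RPS3A) and 2 lower (RPL22L1 and RPL23A), against 11% of all genes higher and 18.8% lower. Mean fragment length, which enters TPM through the effective length of these short transcripts, was 171.8 to 185.2 bases in cocultivated and 180.0 to 187.6 bases in non-cocultivated libraries, and its part in the difference between units was not tested. With effective lengths as offsets in the count fit, 3 members were higher and 0 lower, against 15.7% and 13.5% of all genes.

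**Figure D3:**
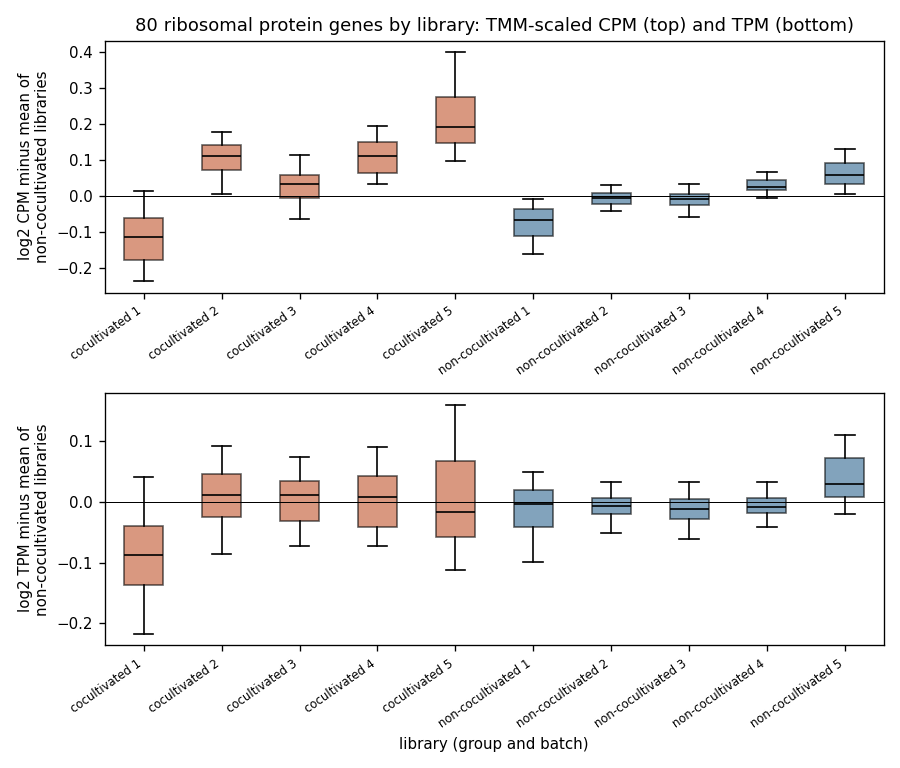
Levels of the 80 tested ribosomal protein genes in each library relative to the gene's mean in the non-cocultivated libraries, as log2 TMM-scaled CPM (top) and log2 TPM (bottom); boxes span the quartiles, the line is the median and whiskers reach the 5th and 95th percentiles of the genes. In CPM the medians of cocultivated libraries 1 to 5 are -0.11, 0.11, 0.03, 0.11 and 0.19, while in TPM 4 of these 5 medians lie within 0.02 of 0 and library 1 lies at -0.09.

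RPS27L, a paralog of the small-subunit protein RPS27 and a known transcriptional target of p53 (a gene that PC3 cells lack in functional form), had the smallest p of all members. It stood at 32.1, 31.5, 30.6, 31.2 and 36.0 CPM in cocultivated libraries 1 to 5, against 27.0, 27.6, 26.6, 27.7 and 27.5 CPM in non-cocultivated libraries. The groups did not overlap, and cocultivated library 5 was highest. The log2 fold change was 0.24 ± 0.05 (SE), a 1.18-fold higher level (edgeR adjusted p = 0.00177), higher in 5 of 5 batches. In TPM it averaged 89.8 ± 3.03 in cocultivated and 79.97 ± 1.55 in non-cocultivated libraries (SD, n = 5 each). RPS27L was called higher under all 28 alternative settings tried.

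RPS29, a small zinc-binding protein of the small-subunit head, had the largest fold change of the members. Its level was 214.3, 273.2, 254.0, 268.4 and 316.5 CPM in cocultivated libraries 1 to 5, against 210.2, 210.6, 201.6, 211.2 and 248.3 CPM in non-cocultivated libraries. The groups overlapped: cocultivated library 1 lay beside the low non-cocultivated libraries, and non-cocultivated library 5 was above the others of its group. The log2 fold change was 0.29 ± 0.09 (SE, edgeR adjusted p = 0.0217), and it was higher in 5 of 5 batches. Leaving out non-cocultivated library 2, 3 or 4 ended the call. In these fits the edgeR adjusted p was 0.0560 or less and the fold change 0.27 or more. The call also ended without both libraries of batch 2, 3 or 4, with the edgeR adjusted p up to 0.1001.

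RPS3A, a protein of the small subunit near the mRNA exit, stood at 665.3, 742.0, 704.5, 766.6 and 807.7 CPM in cocultivated libraries 1 to 5, against 620.8, 664.7, 655.4, 681.2 and 674.1 CPM in non-cocultivated libraries. Only cocultivated library 1 fell inside the range of the non-cocultivated libraries. The log2 fold change was 0.16 ± 0.05 (SE, edgeR adjusted p = 0.0376). In TPM the groups did not overlap, with 1442 ± 25.1 in cocultivated and 1366 ± 12.6 in non-cocultivated libraries.

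RPL10, which joins the large subunit late in its assembly, stood at 1236, 1423, 1344, 1398 and 1559 CPM in cocultivated libraries 1 to 5, against 1183, 1220, 1234, 1259 and 1312 CPM in non-cocultivated libraries. Again cocultivated library 1 was the one within the non-cocultivated range. The log2 fold change was 0.17 ± 0.06 (SE), and its edgeR adjusted p of 0.0498 lay just under the threshold. RPS3A and RPL10 lost their calls when libraries were scaled by their totals (log2 fold change 0.11 for each, edgeR adjusted p = 0.0589 and 0.0765), while RPS27L and RPS29 kept theirs. Leaving out 1 library ended the call in 8 of 10 cases for each of them, except without cocultivated library 1 or 3 (RPS3A) and without cocultivated library 1 or non-cocultivated library 5 (RPL10), with adjusted p up to 0.0839 for RPS3A and 0.103 for RPL10.

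**Figure D4:**
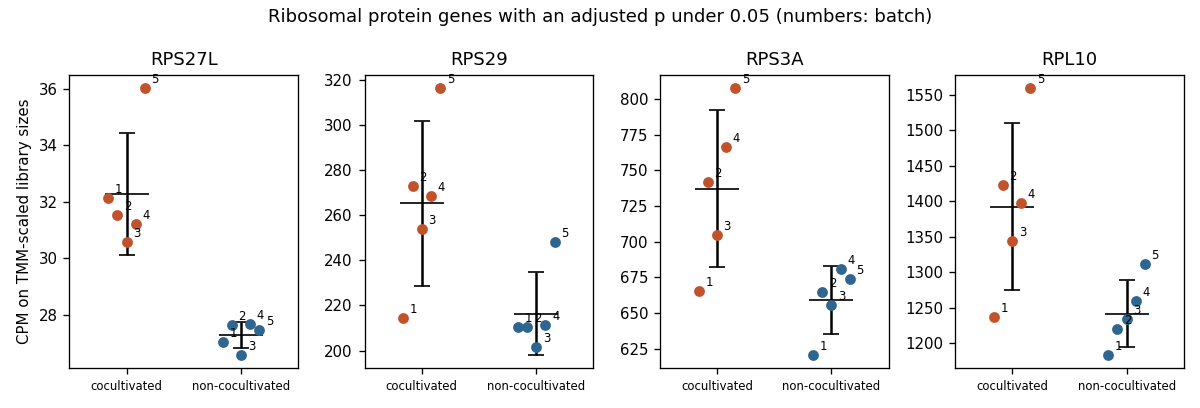
TMM-scaled CPM of the 4 ribosomal protein genes with an adjusted p under 0.05, in 5 cocultivated and 5 non-cocultivated libraries (points, numbered by batch; lines are mean ± SD; the vertical axes do not start at 0). The groups are apart for RPS27L (30.6 to 36.0 against 26.6 to 27.7 CPM), and cocultivated library 1 overlaps the non-cocultivated libraries for RPS29, RPS3A and RPL10.

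The stalk proteins RPLP0, RPLP1 and RPLP2, which recruit elongation factors to the ribosome, had positive fold changes that did not pass the test. RPLP0 averaged 3260 ± 195 TPM in cocultivated and 3198 ± 163 TPM in non-cocultivated libraries. RPLP1 averaged 1516 ± 201 TPM in cocultivated and 1376 ± 100.5 TPM in non-cocultivated libraries. RPLP2 averaged 1863 ± 149 TPM in cocultivated and 1835 ± 93.9 TPM in non-cocultivated libraries (SD, n = 5 each). Their log2 fold changes of counts were 0.11, 0.19 and 0.12, with edgeR adjusted p = 0.329, 0.164 and 0.325, and RPLP1 was called with the batch as a block (adjusted p = 0.0246). The interval of RPLP1, from -0.03 to 0.41, was the widest of the 80.

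RPL5 and RPL11, which assemble with 5S ribosomal RNA and can bind the p53 regulator MDM2 when they are not in ribosomes, were not called on either scale. RPL5 had 2167, 2194, 2250, 2190 and 2137 TPM in cocultivated libraries 1 to 5, against 2323, 2293, 2257, 2240 and 2262 TPM in non-cocultivated libraries. RPL11 averaged 1291 ± 20.6 TPM in cocultivated and 1346 ± 27.3 TPM in non-cocultivated libraries. In counts their log2 fold changes were 0.02 (95% interval -0.08 to 0.12) and 0.03 (-0.07 to 0.13). In TPM they were -0.06 for each (limma adjusted p = 0.164 and 0.140), so the sign depended on the scaling.

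Of the proteins around the tunnel through which the new chain leaves, 3 line it (RPL4, RPL17 and RPL39) and 6 sit at its rim. None of these 9 genes was called in the main edgeR fit, and 2 (RPL39 and RPL26) had an unadjusted p under 0.05. Both were called with the batch as a block (RPL26 edgeR adjusted p = 0.0254). RPL39 had the largest change, 0.17 ± 0.07 (SE, edgeR adjusted p = 0.105; 0.0103 with the batch as a block). RPL22, which binds RNA and is dispensable for viability in mouse, had the lowest, -0.08 ± 0.04 (adjusted p = 0.192), and its log2 fold change became -0.01 with effective lengths as offsets. RPL22 was called lower with library totals (-0.14, edgeR adjusted p = 0.00563) and relative to ribosomal protein counts (-0.14, edgeR adjusted p = 0.0127). RPL23A, also at the rim, was called lower in TPM (limma adjusted p = 0.0292) and relative to ribosomal protein counts (edgeR adjusted p = 0.0303). RPS2 and RPS3, at the mRNA entry, had 0.02 and 0.11, neither called, and RPS3 was called with the batch as a block (adjusted p = 0.0444). RPS6, the small-subunit protein that the kinases downstream of mTORC1 phosphorylate, had 0.12 ± 0.05 (adjusted p = 0.0692; 0.0242 with the block).

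By abundance, RPS24 was the top member per unit length, at 15377 ± 292 TPM in cocultivated and 16149 ± 277 TPM in non-cocultivated libraries. RPL41 was next, at 6247 ± 166 TPM in cocultivated and 6266 ± 244 TPM in non-cocultivated libraries. RPS24 was lower without overlap in TPM, but its log2 fold change of counts was 0.01 (95% interval -0.11 to 0.12) and limma on TPM did not call it (adjusted p = 0.149). In all, TPM of the groups did not overlap for 2 members that were higher (RPS27L and RPS3A) and for 6 that were lower, RPS24, RPL19 and RPL7A among them. Over all genes tested the groups did not overlap for 8.46% that were higher and 14.2% that were lower. Fold changes of counts varied little with transcript length: the median was 0.08 for the shorter 40 members and 0.07 for the longer 40.

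The 5 tested paralogs were the lowest of the 80 members per unit length. The lowest tested member was RPL39L, at 45.3 ± 2.95 TPM in cocultivated and 46.5 ± 2.20 TPM in non-cocultivated libraries. Both extremes of the low side were paralogs: RPL22L1 had a log2 fold change of -0.15 ± 0.08 (SE, edgeR adjusted p = 0.147; 0.0296 with the batch as a block), and RPL7L1 had -0.13 ± 0.06 (adjusted p = 0.0978; 0.0135 with the block). RPL22L1 stood at 88.1, 87.4, 100.7, 94.8 and 91.9 TPM in cocultivated libraries 1 to 5, against 100.3, 119.2, 100.05, 116.0 and 115.1 TPM in non-cocultivated libraries. Cocultivated library 3 alone reached the lowest non-cocultivated values, and limma on log2(TPM + 0.1) called RPL22L1 lower (adjusted p = 0.00831).

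Setting each paralog against its main gene in the same library removes a shift that both share equally, but not an effect that depends on transcript length. RPS27L and RPS27 had lengths of 665 and 353 bases, RPL22L1 and RPL22 575 and 1208, and RPL7L1 and RPL7 3906 and 889. The part of length in these ratios was not tested. RPS27L stood at 2.00%, 1.87%, 1.90%, 1.86% and 1.91% of the TPM of RPS27 in cocultivated libraries 1 to 5, against 1.73%, 1.78%, 1.70%, 1.72% and 1.74% in non-cocultivated libraries. The groups did not overlap, and the mean log2 ratio differed by 0.14 ± 0.02 (SE; exact two-sided permutation test p = 0.00794, adjusted over 5 pairs 0.0397). That p is the smallest that 5 against 5 libraries can give. RPS27 itself had a log2 fold change of 0.14 ± 0.06 that was not called (edgeR adjusted p = 0.0742; 0.0153 with the batch as a block).

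RPL7L1, a relative of the large-subunit protein RPL7, stood at 2.78%, 2.54%, 2.58%, 2.51% and 1.98% of the TPM of RPL7 in cocultivated libraries 1 to 5, against 3.10%, 2.87%, 2.87%, 2.79% and 2.61% in non-cocultivated libraries. It was lower in 5 of 5 batches although the groups overlapped, and the mean log2 ratio differed by -0.21 ± 0.09 (SE; exact permutation test p = 0.0159, adjusted p = 0.0397). Cocultivated library 5 was lowest, and without it the difference was -0.13 (exact permutation test, adjusted p = 0.119). Leaving out cocultivated library 2, 3 or 4 or non-cocultivated library 1, 2, 3 or 4 also ended the call, at -0.23 to -0.18 (exact permutation test, adjusted p = 0.0529 to 0.119). In TMM-scaled CPM the difference was -0.20 and the adjusted exact permutation p 0.0992.

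RPL22L1 stood at a median of 10.7% of RPL22 in cocultivated and 12.7% in non-cocultivated libraries; in mouse, RPL22 represses its paralog. That difference (-0.17 ± 0.07, exact permutation test, adjusted p = 0.0893) did not pass, and in TMM-scaled CPM it was -0.07 (exact permutation test, adjusted p = 0.387). Nor did RPL39L over RPL39 pass, at 1.14% in cocultivated and 1.22% in non-cocultivated libraries (-0.10 ± 0.05, exact permutation test, adjusted p = 0.0893). RPL26L1, nearly identical in protein to RPL26, stood at a median of 9.18% of it in cocultivated and 9.56% in non-cocultivated libraries (-0.04 ± 0.03, exact permutation test, adjusted p = 0.206). With batches as pairs and 5 of them, a sign-flip test cannot pass the threshold for any pair, and the smallest adjusted p was 0.104.

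**Figure D5:**
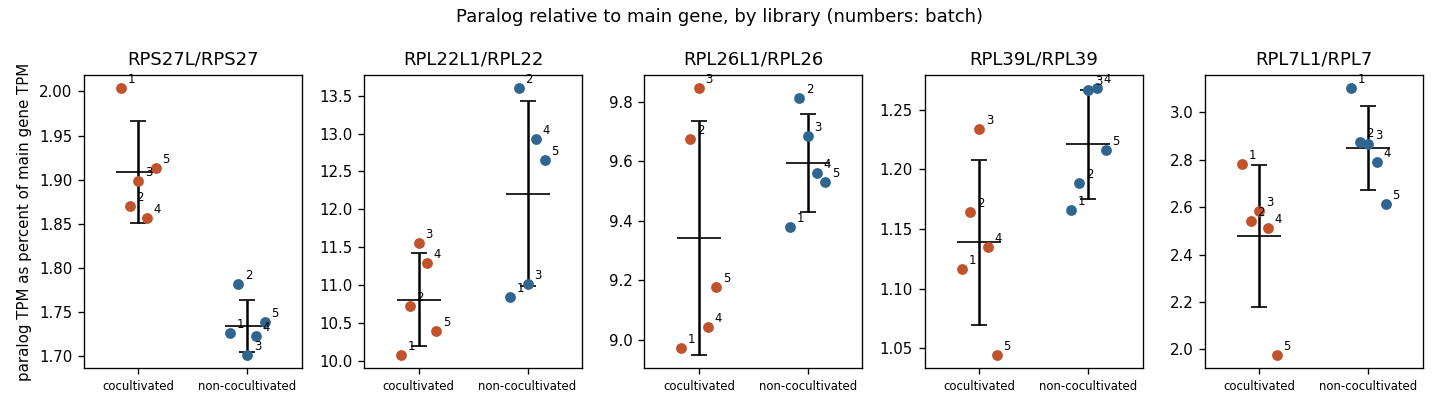
TPM of 5 paralogs as a percent of the TPM of the main gene in the same library, for cocultivated and non-cocultivated libraries (points, numbered by batch; lines are mean ± SD; each panel has its own vertical axis that does not start at 0). RPS27L/RPS27 lies at 1.86% to 2.00% in cocultivated and 1.70% to 1.78% in non-cocultivated libraries without overlap, and the other 4 pairs overlap.

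Ribosomal protein genes have many processed copies in the genome, and RSEM divides reads that fit several genes by likelihood. The tables list 1057 ribosomal protein pseudogene symbols, and for 5 members the pseudogene counts came to over 5% of the member's own counts. Reads given to the pseudogenes are counted apart from the gene, and those of RPL23A (mostly RPL23AP42) equalled 88.1% of the gene's own counts. The same ratio was 70.4% for RPL21, 17.1% for RPL22, 15.4% for RPS28 and 10.2% for RPS2, so levels of these 5 genes are uncertain. Adding pseudogene counts to the members moved no log2 fold change by more than 0.02. One listed pseudogene, RPLP0P2, was itself higher: 6.55 ± 2.30 CPM of the library total in cocultivated and 1.79 ± 0.245 in non-cocultivated libraries, a log2 fold change of 1.93 ± 0.22 (edgeR adjusted p = 2.43e-05). It was picked after its values were seen, and its level is uncertain because it is annotated as a copy of RPLP0. Of 75-base windows in the annotated transcripts, 63.5% of those of RPS27 and 36.3% of those of RPS3A also occurred in another gene, against 4.24% for RPS29, 9.27% for RPL10 and 0 for RPS27L and RPL22L1.

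The ribosomal proteins that the symbol pattern leaves out were described in the same way, and RPL36AL was called higher. RPL36AL, a retrogene copy of RPL36A, averaged 620 ± 17.4 TPM in cocultivated and 591 ± 26.6 TPM in non-cocultivated libraries (log2 fold change of counts 0.15 ± 0.05, edgeR adjusted p = 0.0244; up to 0.0637 without cocultivated library 2 or non-cocultivated library 2, 3 or 4). Counting these, RPL36AL lost its call in 12 of 28 alternatives, library totals and TPM among them. Across the alternatives the fold change went down to 0.07 and the edgeR or limma adjusted p up to 0.171. RACK1, a signalling scaffold on the small subunit, had 0.08 ± 0.06. RPSA, also known as a laminin receptor, had 0.10 ± 0.08. FAU, which encodes a ribosomal protein fused to a ubiquitin-like protein, had 0.06 ± 0.07, and RACK1, RPSA and FAU were not called (edgeR adjusted p = 0.343 to 0.546).

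Other genes with TOP transcripts gave 2 higher and 0 lower of 16, against 17.9% and 15.8% of all genes. EEF1A1, the elongation factor that carries aminoacyl-tRNA, averaged 8642 ± 310.5 TPM in cocultivated and 7671 ± 322 TPM in non-cocultivated libraries (log2 fold change of counts 0.25 ± 0.07, edgeR adjusted p = 0.0102). TPT1, the translationally controlled tumour protein, averaged 3788 ± 147 TPM in cocultivated and 3357 ± 63.2 TPM in non-cocultivated libraries (0.26 ± 0.06, edgeR adjusted p = 0.00621). In the fit blocked by batch, 4 of the 16 passed as higher and 5 as lower, against 22.2% of all genes in each direction.

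Regulators of mTORC1 and TOP translation changed in both directions, 4 of 18 higher and 4 lower, shares near the 17.9% and 15.8% of all genes. SESN2, a leucine sensor that restrains mTORC1, stood at 23.8, 26.4, 23.0, 21.2 and 29.9 TPM in cocultivated libraries 1 to 5, and its mean there was 24.9 ± 3.36, against 8.77 ± 0.292 TPM in non-cocultivated libraries (log2 fold change of counts 1.58 ± 0.10, edgeR adjusted p = 1.64e-07). DEPTOR, an mTOR-binding inhibitor, fell to 4.01 ± 0.441 TPM in cocultivated libraries, against 10.5 ± 1.21 TPM in non-cocultivated libraries (-1.31 ± 0.08, adjusted p = 9.34e-08). The translational repressor EIF4EBP1 (0.59 ± 0.07), the stress-induced mTORC1 inhibitor DDIT4 (0.71 ± 0.17) and the activating GTPase RHEB (0.32 ± 0.04) were also higher. The mTORC1 subunit RPTOR (-0.34 ± 0.04), EIF4EBP2 (-0.14 ± 0.04) and SESN3 (-0.65 ± 0.22) were lower, SESN3 at under 0.5 TPM in each library. These 8 include both activators and inhibitors of mTORC1, and all but EIF4EBP2 had fold changes larger in size than the 0.29 of RPS29.

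Factors that handle ribosomal proteins outside the ribosome, 12 chaperones and importins, gave 0 higher and 1 lower, against 17.9% and 15.8% of all genes. The lower gene was the importin KPNB1, at 334 ± 42.5 TPM in cocultivated and 395 ± 18.9 TPM in non-cocultivated libraries. Its log2 fold change of counts was -0.16 ± 0.05 (edgeR adjusted p = 0.0213, and up to 0.0562 without cocultivated library 2 or non-cocultivated library 3). In all, KPNB1 lost its call in 7 of 28 alternatives, with the edgeR adjusted p up to 0.0855 when libraries were left out. LTV1, which helps small-subunit assembly, had -0.11 ± 0.05 (adjusted p = 0.114). With the batch as a block, 0 of the 12 were higher and 2 lower, against 22.2% of all genes in each direction. Of 6 enzymes that modify ribosomal proteins, 0 were called by edgeR without the block, against 17.9% of all genes higher and 15.8% lower. The hydroxylases RIOX1 and RIOX2 had -0.10 ± 0.04 and -0.06 ± 0.04 (edgeR adjusted p = 0.107 and 0.286). RIOX1 alone had an unadjusted p under 0.05, and it was called lower with the block (adjusted p = 0.0393).

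Factors that sense and rescue stalled ribosomes gave 5 higher and 0 lower of 16, against 17.9% and 15.8% of all genes. In the fit blocked by batch they gave 6 higher and 2 lower, against 22.2% of all genes in each direction. ZNF598, the ubiquitin ligase that marks collided ribosomes, had a log2 fold change of 0.14 ± 0.03 (edgeR adjusted p = 0.00374). It lost its call in 5 of 28 alternatives, among them library totals and TPM, with the fold change down to 0.08 and the adjusted p up to 0.394. ASCC2 and TRIP4, of the complex that splits them, had 0.19 ± 0.04 and 0.24 ± 0.06 (adjusted p = 0.00383 and 0.00637). PELO, the rescue factor for stalled ribosomes, had 0.24 ± 0.06, and the ubiquitin-like modifier UFM1, attached to RPL26 at the endoplasmic reticulum, had 0.15 ± 0.04. Each of the 5 was higher in 5 of 5 batches. Of 4 hibernation factors, HABP4 was higher, at 21.2 ± 0.775 TPM in cocultivated and 15.7 ± 0.630 TPM in non-cocultivated libraries (0.51 ± 0.05, adjusted p = 9.44e-06), and its relative SERBP1 had -0.14 ± 0.05 (adjusted p = 0.0611; 0.00707 with the batch as a block).

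Mitochondrial ribosomal proteins, which build a separate ribosome, gave 2 higher and 4 lower of 78, against 17.9% and 15.8% of all genes. Their median log2 fold change was -0.02, and 78 of 78 lay within ±0.3. MRPS6 had the smallest p, at 78.8 ± 5.47 TPM in cocultivated and 101 ± 3.25 TPM in non-cocultivated libraries (-0.28 ± 0.05, edgeR adjusted p = 0.000863), and MRPS26 was next (-0.16 ± 0.03, adjusted p = 0.00329). In the fit blocked by batch, 7 of the 78 passed as higher and 16 as lower, against 22.2% of all genes in each direction.

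The libraries held 39074949 to 51515712 expected counts, so a count of 0 allows up to 0.0582 to 0.0768 CPM, counting error only. Epithelial genes expected in PC3 were present throughout, and their summed TPM was 751 to 842 in cocultivated and 1058 to 1145 in non-cocultivated libraries, with 5 of 5 genes called lower. Adipocyte markers summed to 250 to 499 TPM in cocultivated and 56.7 to 115 TPM in non-cocultivated libraries, almost all of it FABP4. CIDEC ran lower, at 1.97 to 4.55 TPM in cocultivated and 4.25 to 9.05 TPM in non-cocultivated libraries. Of the 3 adipocyte markers tested, 1 was called higher and 1 lower. The other 6 of 8 markers, ADIPOQ, LEP and PLIN1 among them, stayed under 1 TPM in every library. Stromal markers summed to 0.97 to 1.81 TPM in cocultivated and 3.91 to 5.13 TPM in non-cocultivated libraries. Blood cell markers summed to 44.3 to 49.2 TPM in cocultivated and 35.1 to 39.6 TPM in non-cocultivated libraries, almost all of it CD68, with PTPRC and HBB under 0.2 TPM. LYZ lay lower without overlap, at 0.39 to 0.8 TPM in cocultivated and 1.53 to 3.78 TPM in non-cocultivated libraries. Of the 2 blood cell markers tested, 1 was called higher and 1 lower. The part of these markers in the ribosomal protein values was not tested, and in bulk libraries fewer cells of a type and less RNA per cell cannot be told apart.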

How the data were processed

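mRNA was sequenced from 10 libraries of PC3 cells, 5 cocultivated with marrow adipocytes and 5 not. Per the labels' protocols, a stranded ligation kit and 500 ng of RNA were used. Tools listed in the submitters' processing notes are RSEM 1.3.3, Bowtie2 2.4.4 and bcl2fastq. Build, annotation and strandedness of the counting were not given in the sources used here. Per the file headers, the deposited tables hold RSEM expected counts, TPM, length and effective length for each gene.

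Expected counts were rounded and tested with edgeR 4.0.16 in R 4.3.3: filterByExpr (minimum count 10, minimum total 15), TMM scaling, quasi-likelihood F test, cocultivated over non-cocultivated, Benjamini-Hochberg adjustment over 15690 genes, threshold 0.05. SE is the absolute log2 fold change over the square root of F. limma 3.58.1 (on log2 TPM with a pseudocount) and DESeq2 1.42.0 were alternatives. Paralog ratios of TPM were compared by exact two-sided permutation. The fit was tested on simulated data. No 2 libraries of a group were duplicates (chi-square per degree of freedom 4.93 to 53.5).

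The labels give each batch number to 1 library of each group, which pairs them; deviations from the group means correlated within batches at 0.329, -0.019, 0.073, 0.104 and 0.281. Start sequences come from RefSeq (GRCh38.p14), shared 75-base windows from GENCODE v29 transcripts. Members and lists were chosen with earlier results of these data known. Genes named by rule were the paralogs, stalk and 5S genes, called members, the extreme fold changes, the 2 genes of each list with the smallest p and ribosomal proteins outside the pattern; some of these are not reported here. Other named genes were picked after their values were seen.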

Additional observations from a re-analysis of the deposited data

Results flagged for a closer look

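A library stood apart from the other 4 of its group by Dixon's criterion in 8 of 50 groups of values, and chance gives about 1 in 20. The share of ribosomal protein genes in TPM was 18.08% in cocultivated library 1 (the other 4 lay between 19.2% and 19.3%) and 19.74% in non-cocultivated library 5 (the others 19.0% to 19.1%). In cocultivated library 5, RPS27L was high at 36.01 CPM, RPS27 high at 698.5 CPM and RPL7L1 low at 202.6 CPM. RPL39L was low at 15.34 CPM in cocultivated library 1. RPS29 was high at 248.3 CPM in non-cocultivated library 5, and RPL26L1 was low at 52.3 CPM in non-cocultivated library 1. These 8 values thus come from batches 1 and 5 in both groups, and their cause was not tested.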

How the results depend on the processing

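Of 1064 fold changes (38 named genes under 28 alternatives), 930 kept their direction and side of the threshold, 65 lost a call, 47 gained one and 22 changed sign. Members called higher, 4 in the edgeR fit, numbered 2 with library totals, 2 without the low-count filter, 20 with the replicate block, 7 with DESeq2, 2 with limma on log2(TPM + 1), and 1 to 30 when 1 library or 1 batch was left out (18 without both libraries of batch 1). Members called lower, 0 in the edgeR fit, numbered 3 with library totals, 3 relative to the ribosomal protein counts, 2 with the replicate block, and 2 with each limma fit. All genes called higher, 2801 in the edgeR fit (17.9%), numbered 2459 without the low-count filter, 3478 with the replicate block (22.2%) and 2831 with DESeq2 (18%). They numbered 2116 to 3041 when 1 library or 1 batch was left out (3033 without both libraries of batch 1). Relative to ribosomal protein counts they numbered 1810, and with limma on log2(TPM + 1) and log2(TPM + 0.1) 1740 and 1733. All genes called lower, 2478 in the edgeR fit (15.8%), numbered 2532 relative to ribosomal protein counts and 3487 with the replicate block (22.2%). With the same 2 limma fits they numbered 2975 and 2956. Library totals gave 2216 higher and 3555 lower, with the median of all genes at -0.06. Signs turned only in uncalled genes. With library totals, RPL11 was -0.0265, RPL39L -0.0107 and RPL5 -0.0322. Relative to ribosomal protein counts, RPL11 was -0.0352, RPL39L -0.0206, RPL5 -0.0410, RPL7 -1.46e-05 and FAU -0.00514. With limma on log2(TPM + 1) and log2(TPM + 0.1), RPL26L1 was -0.0119 and -0.0119, RPL11 -0.0594 and -0.0594, RPL39L -0.0389 and -0.0397, RPL5 -0.0566 and -0.0566, RPL7 -0.00602 and -0.00603, RACK1 -0.00227 and -0.00227, and FAU -0.0303 and -0.0303. The ratio RPL7L1/RPL7 lost its call in TMM-scaled CPM (-0.197), with the replicate block (-0.208, as did RPS27L/RPS27 at 0.138), and without 8 of 10 single libraries (-0.226 to -0.129; all 10 spanned -0.252 to -0.129); RPL39L/RPL39 gained one without cocultivated replicate 3 (exact permutation adjusted p = 0.0397; range without single libraries -0.131 to -0.0713). The offsets for effective length were added after seeing the data. The causes of these changes were not tested; batch differences of 5 pairs cannot pass a sign-flip test.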
